A study of Mus musculus with 6 samples.

Results

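The subject was the nuclear genes that encode the subunits of the mitochondrial respiratory chain and of the ATP synthase. Members were the gene entries whose symbols begin with Ndufa, Ndufb, Ndufc, Ndufs or Ndufv (complex I, Ndufaf left out), Sdha to Sdhd (complex II), Uqcr (complex III), Cox4i, Cox5, Cox6, Cox7 or Cox8 (complex IV) and Atp5 (complex V), with at least 10 counts in every library. Of 23282 entries in the count tables, 85 carried such a symbol and 81 passed the count minimum. They comprised 38 genes of complex I, 4 of complex II, 8 of complex III, 14 of complex IV and 17 of complex V. Every member was also among the 15237 genes tested.

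RNA was taken from one forebrain hemisphere of male C57BL/6J mice aged 8 to 10 weeks, with the olfactory bulbs and the cerebellum removed, and 1 library was made per mouse. In the group labelled water avoidance stress (WAS), 3 mice stood for 1 h on a small platform surrounded by water, and the tissue was taken directly afterwards. The 3 mice labelled control stood on the platform for the same 1 h in a dry container, so both groups shared the platform and the confinement. The assay was QuantSeq 3′ mRNA-Seq, which places reads at the 3′ end of polyadenylated transcripts. Levels are therefore given as CPM (counts scaled to a common library total) after scaling by the trimmed mean of M values (TMM), without division by length. Groups were taken from the sample labels. The column headings of the tables carry letter codes that no source explains and that could be read as opposite to the labels, so directions are written for the libraries labelled WAS and control, and an exchange of the labels would turn each of them around. Replicates 1 to 3 of each group are called WAS 1 to 3 and control 1 to 3.

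Total counts lay between 9248520 and 10502029 per library, and the members took 1.36 to 1.47% of them. Markers of the labelled tissue were present. The 10 neuron markers summed to 8224 to 10200 CPM, while the 10 muscle markers reached 25.1 to 32.1 CPM. Some libraries stood apart in tissue markers. Those of striatal projection neurons summed to 181, 2106 and 409 CPM in WAS 1 to 3 and to 1063 to 1492 CPM in the control libraries. Those of choroid plexus summed to 54.3 CPM in WAS 1 and 19.1 CPM in control 2 against 934 to 1264 CPM in the other libraries. Of the 10 neuron markers, 4 (Camk2a, Slc17a7, Rbfox3 and Syt1) had an unadjusted p under 0.05 and lay lower in the libraries labelled WAS, as did 3.41% of all genes tested, and 3 of the 10 had a log2 fold change above 0. Of the 10 astrocyte markers, 3 (S100b, Aqp4 and Aldoc) had an unadjusted p under 0.05 and lay higher, as did 3.84% of all genes, and 7 of the 10 were above 0. The astrocyte sum overlapped between the groups, at 4827 to 5025 CPM in the WAS libraries and 4783 to 4963 CPM in the control libraries. The neuron sum was 8224 to 8764 CPM in the WAS libraries and 9550 to 10200 CPM in the control libraries. Of the 8 tested erythroid markers, all had log2 fold changes above 0, with a median of 0.35, and their list summed to 2447, 1924 and 3225 CPM in WAS 1 to 3 against 1753, 1955 and 2342 CPM in control 1 to 3. Bpgm among them had an unadjusted p under 0.05. Hbb-b1 and Hbb-bs had nearly the same counts (6015 and 6031 in WAS 1), and so had Hbb-b2 and Hbb-bt (1513 and 1545). Alignments to several places were counted, so the erythroid markers are not 8 separate measures and their sum may hold reads more than once. Of the 10 microglia markers, 1 was above 0 and none had an unadjusted p under 0.05, with a median of -0.14, beside -0.15 for the neuron markers. Their sum was 338 to 403 CPM in the WAS libraries and 370 to 419 CPM in the control libraries. The part of these markers in the results below was not tested. In RNA of whole tissue, fewer cells of a type and less RNA per cell cannot be told apart.

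The respiratory chain lies in the inner mitochondrial membrane. Complex I (NADH dehydrogenase) and complex II (succinate dehydrogenase) pass electrons to ubiquinone, complex III (cytochrome bc1) passes them on to cytochrome c, and complex IV (cytochrome c oxidase) reduces oxygen. Complexes I, III and IV pump protons, and complex V (ATP synthase) uses the gradient to make ATP. All but complex II also hold subunits encoded in mitochondrial DNA, which were not analysed here. In brain most of the ATP spent on ion pumping and transmission comes from this pathway, and its nuclear genes are known targets of the transcription factors NRF1, GABPA, YY1 and the estrogen-related receptors.

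The promoters of the members held the short motifs of these factors more often than promoters at large, as a description of sequence that the choice of members did not use. RefSeq windows (GRCm38.p6) from 250 bases before to 50 bases after a gene start were found for 68 members, with 74 windows, and were searched on both strands. The NRF1 core GCATGCG stood in 14.9% of member windows and in 3.58% of all 32851 windows. The GABPA core CCGGAAG stood in 21.6% against 8.86%, the YY1 core AGATGGC in 17.6% against 6.4%, and the core of the estrogen-related receptors AAGGTCA in 10.8% against 4.72%. The SP1 core GGGCGG stood in 39.2% against 35.7% and the TATA box TATAAA in 8.11% against 13.6%. The median GC content was 58% in member windows and 52.7% in all windows. The YY1 core was found in 8 of 35 windows of complex I and 5 of 20 of complex V, of which 2 belong to Atp5sl, and in no window of the other complexes. A match is a run of letters and not a shown binding site.

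The 60 bases around the NRF1 core are shown for the most abundant member of each complex whose core lay wholly before the gene start, since this motif had the highest ratio between member windows and all windows. The core is in capitals, and where both strands carry it the 2 overlapping matches are in capitals together. In complex III the matches, in Uqcr11 and Uqcrc1, did not lie wholly before the start, and none is shown. The stretches are chr15:82354341-82354400 on the minus strand for Ndufa6, chr4:140961191-140961250 on the plus strand for Sdhb, chr5:115349085-115349144 on the minus strand for Cox6a1 and chr5:108434414-108434473 on the minus strand for Atp5k. The core began 83, 54, 160 and 48 bases before the start, respectively.
Ndufa6: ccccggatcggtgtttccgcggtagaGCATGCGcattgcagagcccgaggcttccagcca
Sdhb: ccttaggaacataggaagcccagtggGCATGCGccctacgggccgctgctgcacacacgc
Cox6a1: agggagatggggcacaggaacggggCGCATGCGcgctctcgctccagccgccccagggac
Atp5k: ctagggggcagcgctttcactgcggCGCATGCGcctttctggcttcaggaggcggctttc

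Mean levels ran from 2.23 CPM (Cox7a1) to 801 CPM (Atp5g3). Of 81 members, 5 lay at 400 CPM or more, 23 between 200 and 400 CPM, 28 between 100 and 200 CPM, 16 between 50 and 100 CPM, 5 between 10 and 50 CPM and 4 under 10 CPM. The median level was 109 CPM in complex I, 171 CPM in complex II, 143 CPM in complex III, 235 CPM in complex IV and 138 CPM in complex V. The count minimum removed 4 entries, all of complex IV. Cox8c was listed at 0 in every library, Cox4i2 had 6 to 18 counts, Cox7b2 2 to 18 and Cox8b 4 to 14. Just inside the minimum were Cox7a1 with a lowest count of 13, Ndufa4l2 with 22 and Cox6b2 with 41. These are mainly forms known from other tissues (heart and muscle, lung, testis) or, for Ndufa4l2, from low oxygen.

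**Figure D1:**
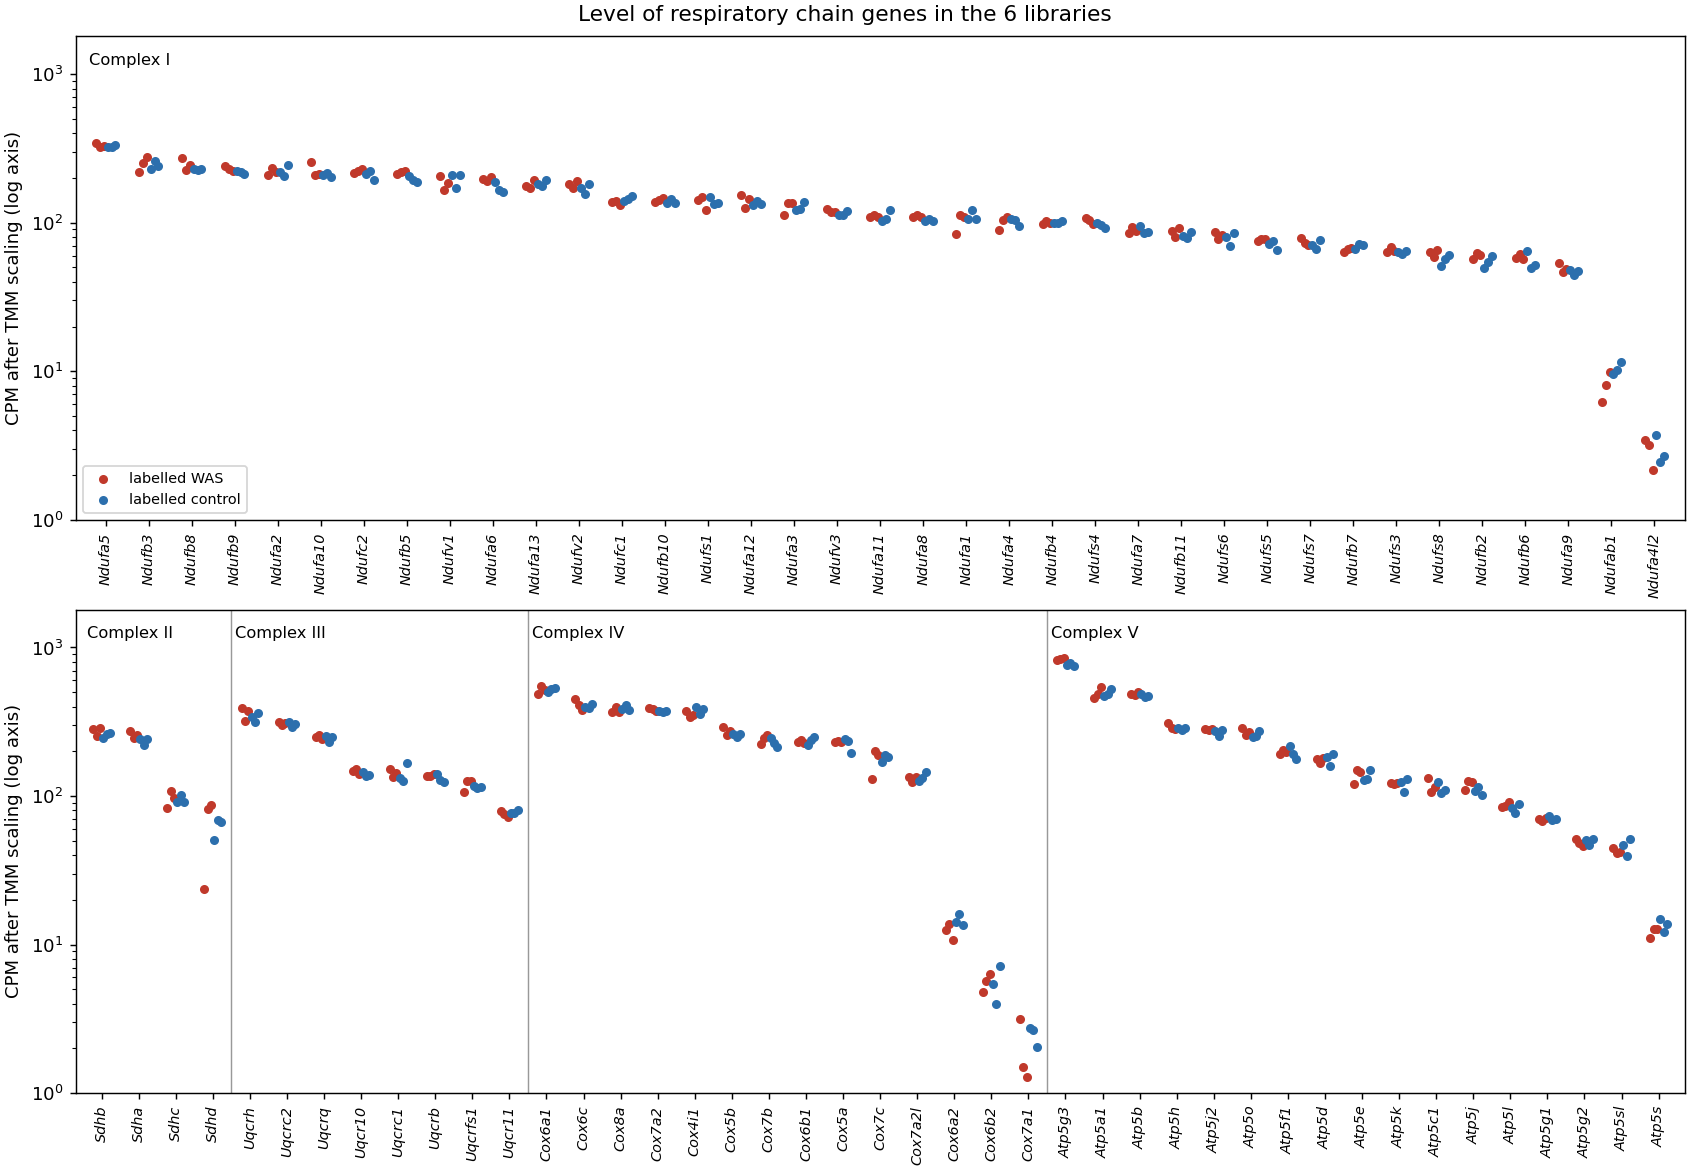
Level of the genes of each complex, 1 member left out, in the 6 libraries (y axis, CPM after TMM scaling, log axis), ordered by mean level within complexes I to V; red points are the 3 libraries labelled WAS and blue points the 3 labelled control. Most genes lie between 50 and 400 CPM with red and blue points intermixed, and the low points are the tissue forms, Ndufab1 and Atp5s.

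The comparison between the groups asked whether 1 h of WAS went with a change in the mRNA of any complex. In the edgeR quasi-likelihood fit, 1 of 81 members, Ndufa6, had an unadjusted p under 0.05, which is 1.23% of the members, where 7.25% of all genes tested had one. The count was 4 (4.94%) with total-count scaling, against 7.67% of all genes, 3 (3.7%) with limma on quantile-normalized counts, against 6.97%, and 0 with DESeq2, against 5.82%. With 1 library left out it was 0, without control 2 or without control 3, to 2, without WAS 2. Ndufa6 was higher in the WAS libraries, as were 3.84% of all genes by that criterion, and no member was lower, against 3.41% of all genes. None met an unadjusted p under 0.05 with a fold change of at least 1.5, which 2.38% of all genes did. After Benjamini-Hochberg adjustment over all genes no member and 0% of all genes passed 0.05, and DESeq2 and limma with quantile normalization also called no member. For 76 of 81 members the 95% interval of the fold change lay within 1.5-fold both ways, against 56.1% of all genes. All genes include many at lower levels, and the share among genes of like level was not taken. The median SE was 0.089 in the members, 0.097 in other genes between 49.1 and 350 CPM and 0.17 over all genes. The median half-width of the 95% interval of the members was 0.19 on the log2 scale, a fold of 1.14. Of the 77 members above 10 CPM, log2 fold changes ran from -0.24 (Cox6a2) to 0.20 (Ndufa6).

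The small differences leaned to the WAS side, which is a description with no test. The log2 fold change, WAS over control, was above 0 in 55 of 81 members, or 67.9%, against 50.2% of all genes tested and 45.1% of the 3653 other genes between 49.1 and 350 CPM, the range of the middle 80% of the members. The counts were 26 of 38 in complex I, 4 of 4 in complex II, 7 of 8 in complex III, 6 of 14 in complex IV and 12 of 17 in complex V. With 1 library left out the total ran from 46 members, without control 2, to 59, without control 3. Of all genes, 50.8% and 50.5% were then above 0. The median log2 fold change was 0.042 over all members, and 0.058, 0.069, 0.038, -0.012 and 0.028 in complexes I to V, beside 0.00085 over all genes. Leaving out 1 library moved the median over all members between 0.022, without control 2, and 0.050, without control 1. The same ranges were 0.033 to 0.056 in complex I, 0.026 to 0.11 in complex II, 0.016 to 0.059 in complex III, -0.042 to 0.0088 in complex IV and 0.00079, without control 2, to 0.051 in complex V. With total-count scaling 67 members and 58.1% of all genes were above 0, with medians of 0.079 and 0.037. All genes thus moved up together with the members. The medians of complexes I to V were then 0.095, 0.11, 0.075, 0.025 and 0.065. The sums given below for total-count scaling carry the same shift. With quantile normalization the median was 0.063 in complex V and over all members, beside -0.0041 over all genes. The 2 groups did not overlap for 7 members (8.64%, against 11.7% of all genes). This count was 15 (18.5%) under total-count scaling, against 12.2% of all genes, and 15 under quantile normalization, against 11.5%. Of the 7, 6 genes, among them Ndufb5, Ndufa6, Ndufa8, Sdha and Atp5g3, were higher in the WAS libraries (7.41%, against 6.12% of all genes), and Ndufc1 was lower (1.23%, against 5.55%). Ndufb5, Ndufa8 and Ndufc1 were chosen for the text after their values were seen, as were Ndufs8, Ndufv1, Ndufa1 and Cox7c below.

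**Figure D2:**
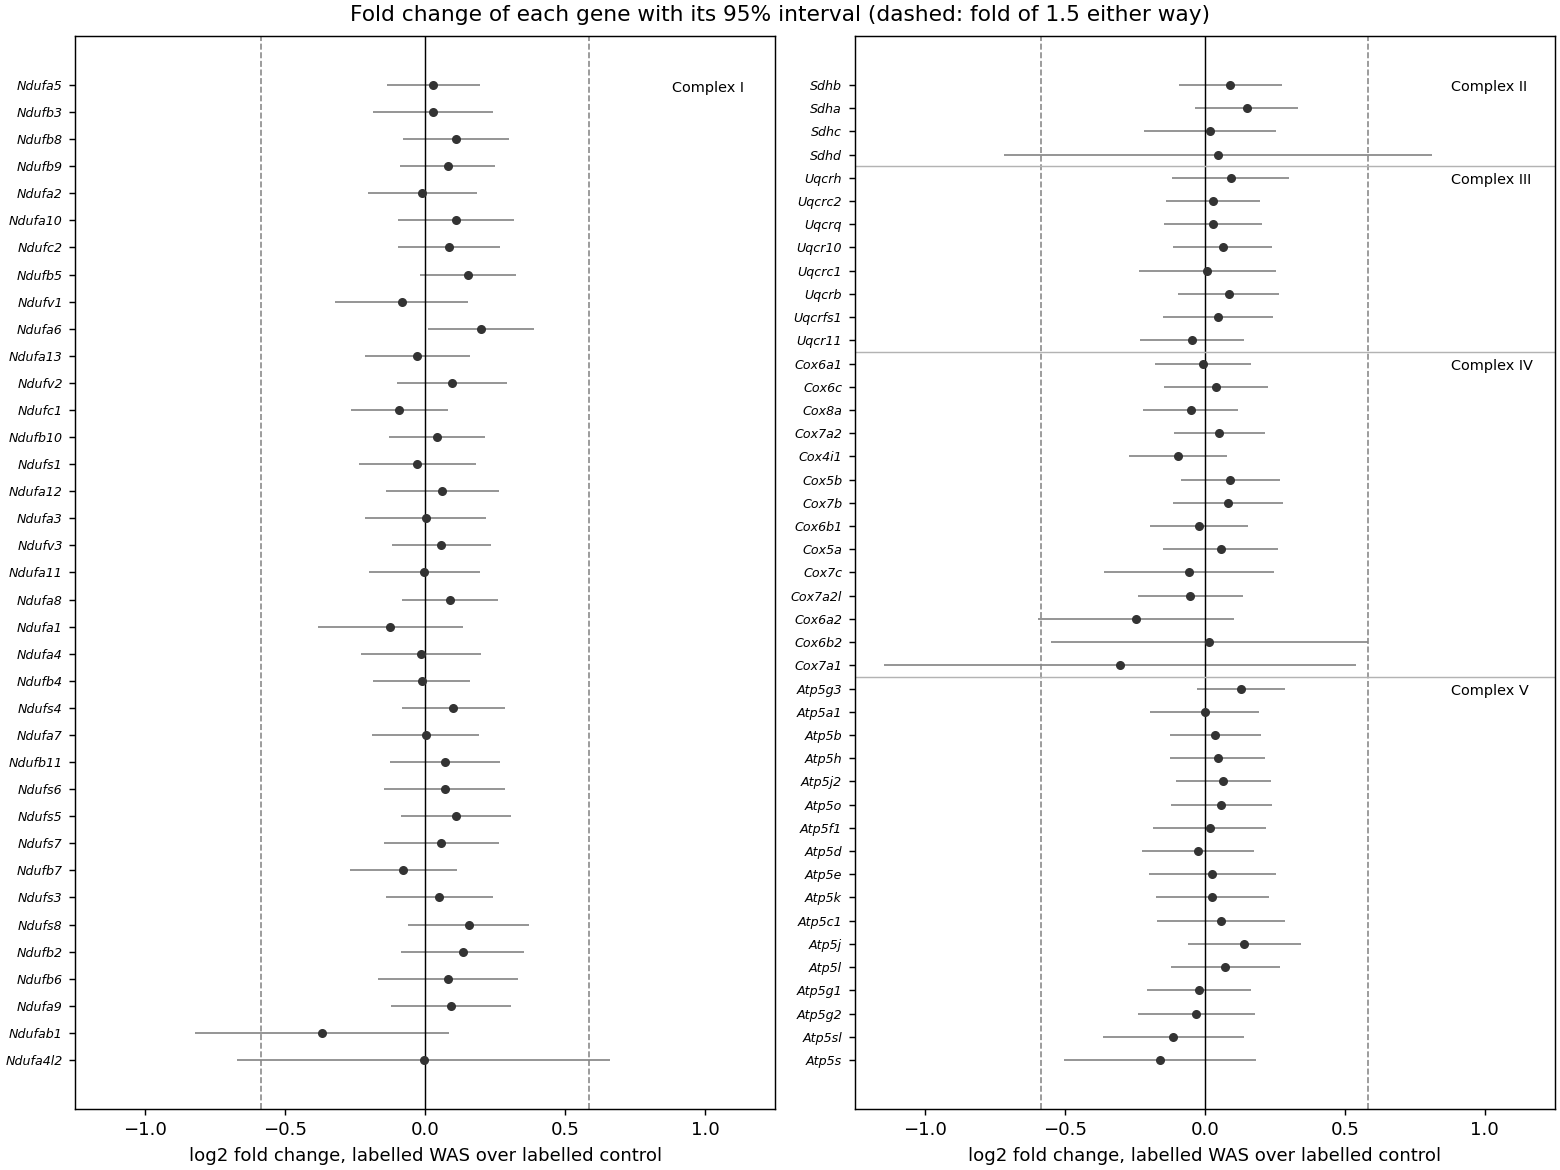
The log2 fold change of each gene, 1 member left out, WAS over control (x axis; point), with its 95% interval (line) from edgeR's quasi-likelihood fit; the dashed lines mark a fold of 1.5 either way and genes are ordered by level within complexes. The interval of Ndufa6 lies just above 0, those of the other genes include 0, and 5 intervals (Ndufab1, Ndufa4l2, Sdhd, Cox6a2, Cox7a1) cross a dashed line.

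Complex I, the largest complex, feeds electrons from NADH into the chain. Its 38 genes summed to 5030, 4967 and 5056 CPM in WAS 1 to 3 and to 4877, 4801 and 4907 CPM in control 1 to 3. The 3 WAS sums lay above the 3 control sums, by 3.21% in the mean (5018 ± 45.6 against 4862 ± 54.7 CPM, SD, n = 3). This difference exceeded the SD of either group. It was 2.56 to 3.74% with 1 library left out, 5.89% with total-count scaling and 4.69% with quantile normalization.

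The member with the highest fold change was Ndufa6, an accessory subunit of the peripheral arm that belongs to the LYR-motif proteins (chr15:82350139-82354291, minus strand, GRCm38.p6). It was at 196.4, 191.1 and 204.6 CPM in WAS 1 to 3. In control 1 to 3 it was at 188, 166.2 and 161.4 CPM. The groups did not overlap, but control 1 lay close to WAS 2. Its log2 fold change was 0.20 (SE 0.086), with an unadjusted p of 0.0406 and a Benjamini-Hochberg adjusted p of 0.677 by edgeR. The unadjusted p was not under 0.05 in 4 of 6 fits that left out 1 library, with log2 fold changes of 0.16 to 0.27 over the 6 fits, and it was 0.0515 by DESeq2.

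The 7 nuclear core subunits, which hold the flavin and the iron-sulphur clusters, had a median log2 fold change of 0.058, with 5 of 7 above 0. Their sum was 818 ± 23.4 CPM in the WAS libraries and 802 ± 45.2 CPM in the control libraries (SD, n = 3), a difference within the spread. Ndufs8, which carries a pair of iron-sulphur clusters, was at 63, 59 and 65.74 CPM against 50.92, 57.39 and 60.27 CPM, with overlapping groups and a log2 fold change of 0.16 (SE 0.098, unadjusted p = 0.142 by edgeR). Ndufv1, the flavin-binding subunit, had the lowest log2 fold change of the core at -0.084 (SE 0.11).

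The 31 other genes of complex I summed to 4200 ± 45.8 CPM against 4059 ± 9.76 CPM (SD, n = 3). The most abundant was Ndufa5, an accessory subunit of the peripheral arm, at 343.4, 322.1 and 329.9 CPM in the WAS libraries and 322, 321.6 and 331.7 CPM in the control libraries. It stood above the second, Ndufb3, in every library. Ndufb3, a small subunit of the membrane arm, varied between 219.6 and 275.4 CPM among the WAS libraries alone. Ndufb5, also of the membrane arm, was at 211.9, 217.8 and 223.3 CPM against 205.8, 192.6 and 189 CPM, a log2 fold change of 0.15 (SE 0.078, unadjusted p = 0.0764 by edgeR). With total-count scaling and with limma on quantile-normalized counts its unadjusted p was under 0.05. Ndufa8, which has twin cysteine motifs and faces the intermembrane space, was at 108.4, 112.2 and 109.9 CPM against 102.4, 105.5 and 103 CPM. Its 6.3% difference was small but its spread within groups was the lowest of all members, with a coefficient of variation (CV) of 1.68%. Ndufc1 was the only member with all WAS values below all control values, at 137.8, 139.5 and 131.1 CPM against 141, 144.1 and 150.4 CPM (log2 fold change -0.093, SE 0.079).

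The lowest log2 fold change of the complex was that of Ndufab1, the mitochondrial acyl carrier protein, which also serves fatty acid synthesis in the organelle. It was at 6.173, 8.016 and 9.885 CPM in the WAS libraries and 9.613, 10.17 and 11.5 CPM in the control libraries. WAS 3 overlapped the control libraries, and the log2 fold change of -0.37 (SE 0.21) had an unadjusted p of 0.101 and an adjusted p of 0.742 by edgeR's quasi-likelihood test. Without WAS 3 it was -0.55, with an unadjusted p of 0.0322. Ndufa4l2, which like Ndufa4 was placed in complex I by its symbol alone, was the least abundant gene of this group at 2.18 to 3.71 CPM. Between neighbours in the order of levels, the 6-library ranges overlapped in 33 of 37 pairs, and the 4 pairs that were apart were Ndufa5 over Ndufb3, Ndufv2 over Ndufc1, Ndufa9 over Ndufab1 and Ndufab1 over Ndufa4l2.

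Complex II oxidizes succinate and is shared with the tricarboxylic acid (TCA) cycle. Its 4 genes had log2 fold changes above 0, but those of Sdhc and Sdhd were not steady. That of Sdhc turned below 0 in 3 of the fits that left out 1 library, reaching -0.074 without WAS 2. That of Sdhd was -0.24 without WAS 3, 0.44 without WAS 1 and -0.14 with quantile normalization. The 4 genes summed to 667, 690 and 731 CPM in WAS 1 to 3 against 631, 654 and 665 CPM in control 1 to 3. The groups met at the edge (667 against 665 CPM) without overlapping, and the mean difference of 7.09% was the highest of the 5 complexes (696 ± 32.5 against 650 ± 17.5 CPM, SD, n = 3). The catalytic pair, Sdha and Sdhb, summed to 536 ± 32.2 CPM against 494 ± 12.9 CPM and the membrane anchors to 160 ± 46.4 CPM against 156 ± 14.8 CPM (SD, n = 3). Sdha, the flavoprotein that holds the succinate site (chr13:74322255-74350240, minus strand), was at 276.1, 245.9 and 259.2 CPM against 242, 219.8 and 242.1 CPM. Its groups did not overlap, and its log2 fold change of 0.15 (SE 0.084) had an unadjusted p of 0.0994 and an adjusted p of 0.742 by edgeR's quasi-likelihood test. The unadjusted p was 0.0483 with total-count scaling and 0.0477 without WAS 2, with adjusted p-values of 0.652 and 0.355 by edgeR. Sdhb, the iron-sulphur subunit, was at 284.7, 254 and 289.1 CPM against 247.6, 263.5 and 266 CPM, with overlapping groups. Sdhc, a membrane anchor, was at 82.8, 107.8 and 96.48 CPM against 90.89, 101.6 and 90.66 CPM.

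Sdhd, the second membrane anchor (chr9:50596340-50603849, minus strand), was the most variable member. It was at 23.61, 82.19 and 86.49 CPM in WAS 1 to 3 and at 50.44, 69.22 and 66.43 CPM in control 1 to 3. WAS 1 was low and so, less far, was control 1, while WAS 2 and WAS 3 lay above every control library. The corresponding raw counts were 241, 769 and 875 against 530, 708 and 647, so WAS 1 was not at the edge of detection. The CV within groups was 41%, beside a median of 6.02% over the members. The log2 fold change was 0.046 (SE 0.35, 95% interval -0.72 to 0.81). Without WAS 1 it was 0.44 with an unadjusted p of 0.00571 by edgeR's quasi-likelihood test and an adjusted p of 0.703, and without WAS 3 it was -0.24. The sum of complex II was 9.09% higher in the WAS libraries without WAS 1 and 4.28% without WAS 3. Striatal markers summed to 181 CPM in WAS 1, 409 CPM in WAS 3 and 1063 CPM in control 1, and choroid plexus markers to 54.3 CPM in WAS 1, 19.1 CPM in control 2 and 1264 CPM in control 1. Their part in the Sdhd values was not tested. The last 500 bases of the longest Sdhd transcript shared no stretch of 50 bases with another gene.

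Complex III passes electrons from ubiquinol to cytochrome c. Its 8 genes summed to 1578, 1503 and 1549 CPM in the WAS libraries and 1522, 1416 and 1541 CPM in the control libraries. The groups overlapped, and control 2 was the lowest library. The mean difference was 3.37% (1543 ± 37.5 against 1493 ± 67.4 CPM, SD, n = 3) and ran from 0.76%, without control 2, to 5.06%, without control 3. It was 6.05% with total-count scaling and 5.5% with quantile normalization. Uqcrh, the hinge protein at the cytochrome c1 contact, was the most abundant and had the highest log2 fold change, 0.092 (SE 0.096), at 390, 319.7 and 373.5 CPM against 341.1, 314.6 and 360.3 CPM. Uqcrc2, a core protein, was at 314.6, 303 and 312.3 CPM against 313.4, 291.1 and 306.8 CPM. The least abundant were Uqcrfs1, the Rieske iron-sulphur protein, at 107 to 125.6 CPM and Uqcr11, a small subunit, at 72.46 to 80.29 CPM with the lowest log2 fold change of -0.044 (SE 0.084). All 8 genes had 95% intervals within 1.5-fold, against 56.1% of all genes, and an absolute log2 fold change under 0.1, against 40.9%.

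Complex IV reduces oxygen, and several of its nuclear subunits exist in tissue forms. The summed level of its 14 genes was 3331, 3408 and 3330 CPM in the WAS libraries and 3343, 3343 and 3359 CPM in the control libraries. These sums were the closest of the 5 complexes, with a difference of 0.242% (3356 ± 45.1 against 3348 ± 8.91 CPM, SD, n = 3). It was -0.523% without WAS 2 and 0.544% without WAS 3. Under total-count scaling, however, the difference was 2.84% and under quantile normalization 3.22%. Cox6a1, the common form of subunit VIa, led at 487.8, 547.3 and 518.8 CPM against 505.1, 522.6 and 532.2 CPM, followed by Cox6c at 448.4, 413.2 and 382.2 CPM against 397.1, 391.8 and 419.1 CPM. The highest log2 fold change was that of Cox5b, the zinc-binding subunit, at 0.092 (SE 0.081), with 290.5, 256.8 and 275.7 CPM against 261.8, 248.7 and 261.6 CPM. Cox4i1, the common form of the regulatory subunit IV, was at 371, 342.2 and 353.7 CPM against 394.8, 359.1 and 385.1 CPM (log2 fold change -0.094, SE 0.079), with overlapping groups.

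The lowest log2 fold changes of complex IV belonged to 2 genes known from heart and skeletal muscle. Cox7a1 was at 3.135, 1.496 and 1.285 CPM against 2.76, 2.64 and 2.053 CPM (-0.30, SE 0.38), from 13 to 32 counts per library. Without WAS 1 its log2 fold change was -0.76 (unadjusted p = 0.0806 by edgeR), and without WAS 3 it was -0.089. Cox6a2 was at 12.44, 13.68 and 10.77 CPM against 14.18, 16.13 and 13.45 CPM (-0.24, SE 0.16, unadjusted p = 0.154 by edgeR). The groups overlapped for both genes. Cox6b2, known from testis, was at 4.01 to 7.19 CPM, with control 2 lowest and control 3 highest. Cox7a2l, a factor in joining complexes III and IV rather than a plain subunit, was at 124.6 to 145.9 CPM.

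Cox7c (chr13:86044798-86046795, minus strand), a small subunit, was the second member after Sdhd that varied widely at a level above 20 CPM. It was at 130.1, 201 and 188.2 CPM in the WAS libraries and 168.2, 188.9 and 182.8 CPM in the control libraries, low in WAS 1. Its transcript end shared stretches of 50 bases with 3 pseudogenes, and 2 of these had counts of the size of its own. Cox7c had 1328, 1881 and 1904 counts in WAS 1 to 3 and 1767, 1932 and 1780 in control 1 to 3. Gm12338 had 1511, 2260 and 2321 against 2111, 2241 and 2063 counts, and Gm10012 had 1248, 1597 and 1703 against 1492, 1591 and 1444 counts. All 3 entries were lowest in WAS 1. Because alignments to several places were counted, reads of these entries cannot be told apart, and the level of Cox7c is uncertain. In all, 28 of 81 members shared such a stretch with another gene, 25 of them with a pseudogene (8 in complex I, 1 in complex II, 3 in complex III, 5 in complex IV and 11 in complex V shared any). Among the 53 members that shared none, 33 had a log2 fold change above 0.

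Complex V makes ATP. Its 17 genes summed to 3754, 3753 and 3883 CPM in WAS 1 to 3 and 3685, 3576 and 3725 CPM in control 1 to 3. The WAS sums lay above the control sums by 3.69% in the mean (3797 ± 74.4 against 3662 ± 76.8 CPM, SD, n = 3), which is more than 1 SD, and WAS 1 and WAS 2 lay close to control 3. The difference was 2.41 to 4.57% with 1 library left out, 6.38% with total-count scaling and 6.72% with quantile normalization. Atp5g3, one of 3 genes for the same subunit c of the membrane ring, was the most abundant member (chr2:73908447-73912464, minus strand). It was at 817.4, 836.9 and 856.3 CPM against 760.6, 785.8 and 749.3 CPM, or 836.9 ± 19.5 CPM against 765.2 ± 18.7 CPM (SD, n = 3). The groups did not overlap, and the log2 fold change of 0.13 (SE 0.072) had an unadjusted p of 0.0999 and an adjusted p of 0.742 by edgeR's quasi-likelihood test. Under total-count scaling its unadjusted p was 0.0424, and by limma with quantile normalization 0.0236, with adjusted p-values of 0.638 and 0.675.

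The other genes of the ring were far lower, with log2 fold changes of -0.021 (SE 0.084) for Atp5g1 and -0.029 (SE 0.095) for Atp5g2. Atp5g1 was at 70.35, 67.55 and 70.78 CPM against 73, 69.22 and 69.51 CPM, and Atp5g2 was at 51.44, 47.99 and 46.26 CPM against 50.44, 47.03 and 51.23 CPM. The 3 ring genes together summed to 955 ± 17.2 CPM in the WAS libraries and 885 ± 16 CPM in the control libraries (SD, n = 3), or 7.86% more. In the F1 part, which binds the nucleotides, the sum was 1413 ± 58.6 CPM against 1396 ± 52.6 CPM, within the spread. There Atp5a1, the alpha subunit, was at 455.2, 486.9 and 540.9 CPM against 470.5, 485.6 and 526.6 CPM, with a log2 fold change of 0.00026 (SE 0.089). The 4 genes of the peripheral stalk, which holds the F1 part in place, had log2 fold changes above 0, and their sum was 883 ± 12.5 CPM against 849 ± 13.8 CPM (SD, n = 3). Among them Atp5j had the highest value of the complex, 0.14 (SE 0.091), at 109.6, 125.8 and 124.4 CPM against 108.6, 115.7 and 101.7 CPM. The lowest 2 entries, Atp5sl and Atp5s, carry older symbols of the factors now named Dmac2 and Dmac2l and are not counted as subunits. Atp5sl was at 39.4 to 51.75 CPM and Atp5s at 11.07 to 14.75 CPM, with log2 fold changes of -0.11 (SE 0.12) and -0.16 (SE 0.16).

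**Figure D3:**
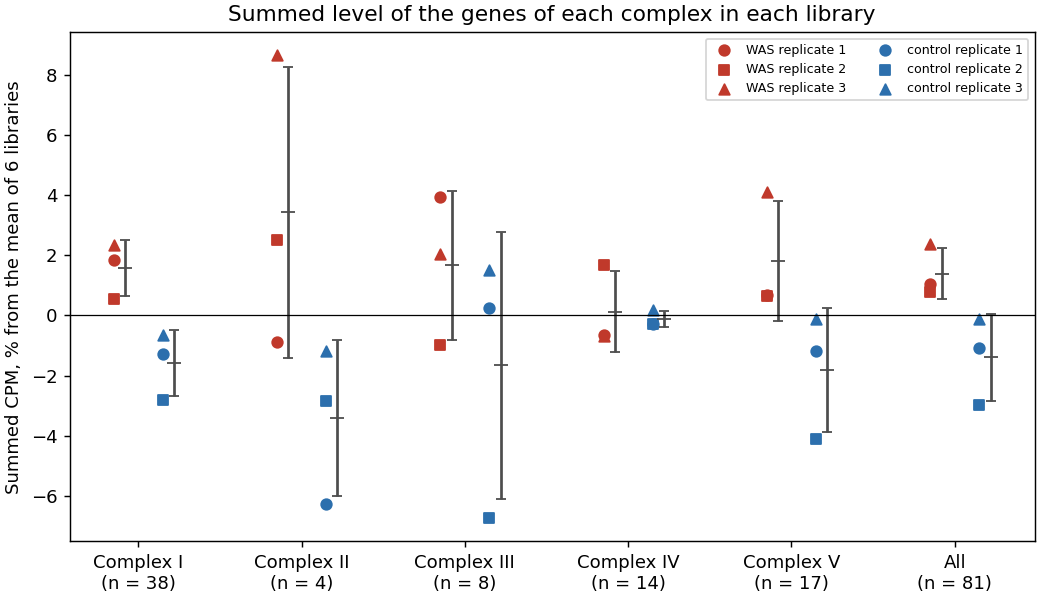
Summed level of each complex in each library (y axis, percent from the mean of the 6 libraries), with red points for libraries labelled WAS, blue points for libraries labelled control, point shapes for replicates 1 to 3 and bars for the mean ± SD of 3 libraries. The groups are apart in complexes I, II and V and in the sum of all 81 genes, and overlap in complexes III and IV.

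Over all 81 genes the sum was 14360, 14322 and 14548 CPM in WAS 1 to 3 and 14057, 13790 and 14196 CPM in control 1 to 3, which is 2.82% more in the WAS libraries (14410 ± 121 against 14015 ± 207 CPM, SD, n = 3). The difference was 5.49% with total-count scaling and 5.15% with quantile normalization. Within this sum the shares of the complexes stayed in narrow ranges in percentage points, and that of complex II varied most relative to its size. Complex I took 34.57 to 35.03% of the CPM of the chain, complex II 4.489 to 5.027%, complex III 10.27 to 10.99%, complex IV 22.89 to 24.24% and complex V 25.93 to 26.69%. The groups overlapped in the share of every complex.

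Choice between alternative forms of a subunit was compared as a share within each family, which does not depend on scaling. In 7 families the leading form was Atp5g3 with 86.04 to 87.98% of the counts, Cox4i1 with 99.53 to 99.84%, Cox6a1 with 97.01 to 97.97%, Cox6b1 with 97.2 to 98.35%, Cox7a2 with 71.61 to 75.37%, Cox8a with 99.66 to 99.9% and Ndufa4 with 96.3 to 98.04%. The Cox7a family was counted with Cox7a2l, which took 24.34 to 27.99% and is not a plain form of the subunit, so its shares are not a choice between forms alone. Ndufa4 bears a complex I symbol but is now counted to complex IV. Both Ndufa4 and Ndufa4l2 stayed in the counts and sums of complex I. The share of Atp5g3 was 87.63 ± 0.517% in the WAS libraries and 86.42 ± 0.598% in the control libraries (SD, n = 3; exact permutation test, two-sided, p = 0.2, adjusted over the 7 families 0.467). That of Cox7a2 was 74.35 ± 0.987% against 72.92 ± 1.24% and that of Cox6a1 97.68 ± 0.249% against 97.27 ± 0.265%, each with the same exact p of 0.2. For the other 4 families the exact p lay between 0.5 and 1. With 3 libraries against 3 the smallest p this test can give is 0.1, so it could not pass 0.05. The end of the longest Atp5g1 transcript, of 4715 bases, shared a stretch of 50 bases with 78 genes, the most of any member. Of these, 1 was a pseudogene. That transcript is longer than the RefSeq gene (chr11:96072793-96075694), so its end may not be that of the counted mRNA. Whether counts of Atp5g1 are ambiguous is therefore not shown, and its level and share stay uncertain. The end of Atp5g2 shared a stretch with 3 genes, 2 of them pseudogenes, so its level and share are uncertain too. Within the ring family the share of Atp5g1 was the single one whose groups did not overlap, with 7.491, 7.092 and 7.271% against 8.257, 7.674 and 7.989%.

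The members varied little between mice of one group. Their median CV within groups was 6.02%, against 7.86% for the other genes between 49.1 and 350 CPM and 14% for all genes tested. Each gene's deviation from its own mean was taken as log2(CPM + 0.5). On this scale 8 members spanned more than 0.5 between the highest and the lowest library, namely Sdhd (1.85), Cox7a1, Ndufab1, Cox6b2, Ndufa4l2, Cox7c (0.626), Cox6a2 and Ndufa1 (0.533). Of these only Sdhd, Cox7c and Ndufa1 were above 20 CPM, and all 3 were lowest in WAS 1. Ndufa1, a small membrane subunit of complex I encoded on the X chromosome, was at 83.58 CPM in WAS 1 and between 105.8 and 121.1 CPM in the other libraries. Control 2 was the lowest library for 29 members, the most of any library, and WAS 1 was the highest for 22 and the lowest for 15. The median deviation over the members was 0.020, 0.021 and 0.027 in WAS 1 to 3 and -0.014, -0.047 and 0.0073 in control 1 to 3.

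**Figure D4:**
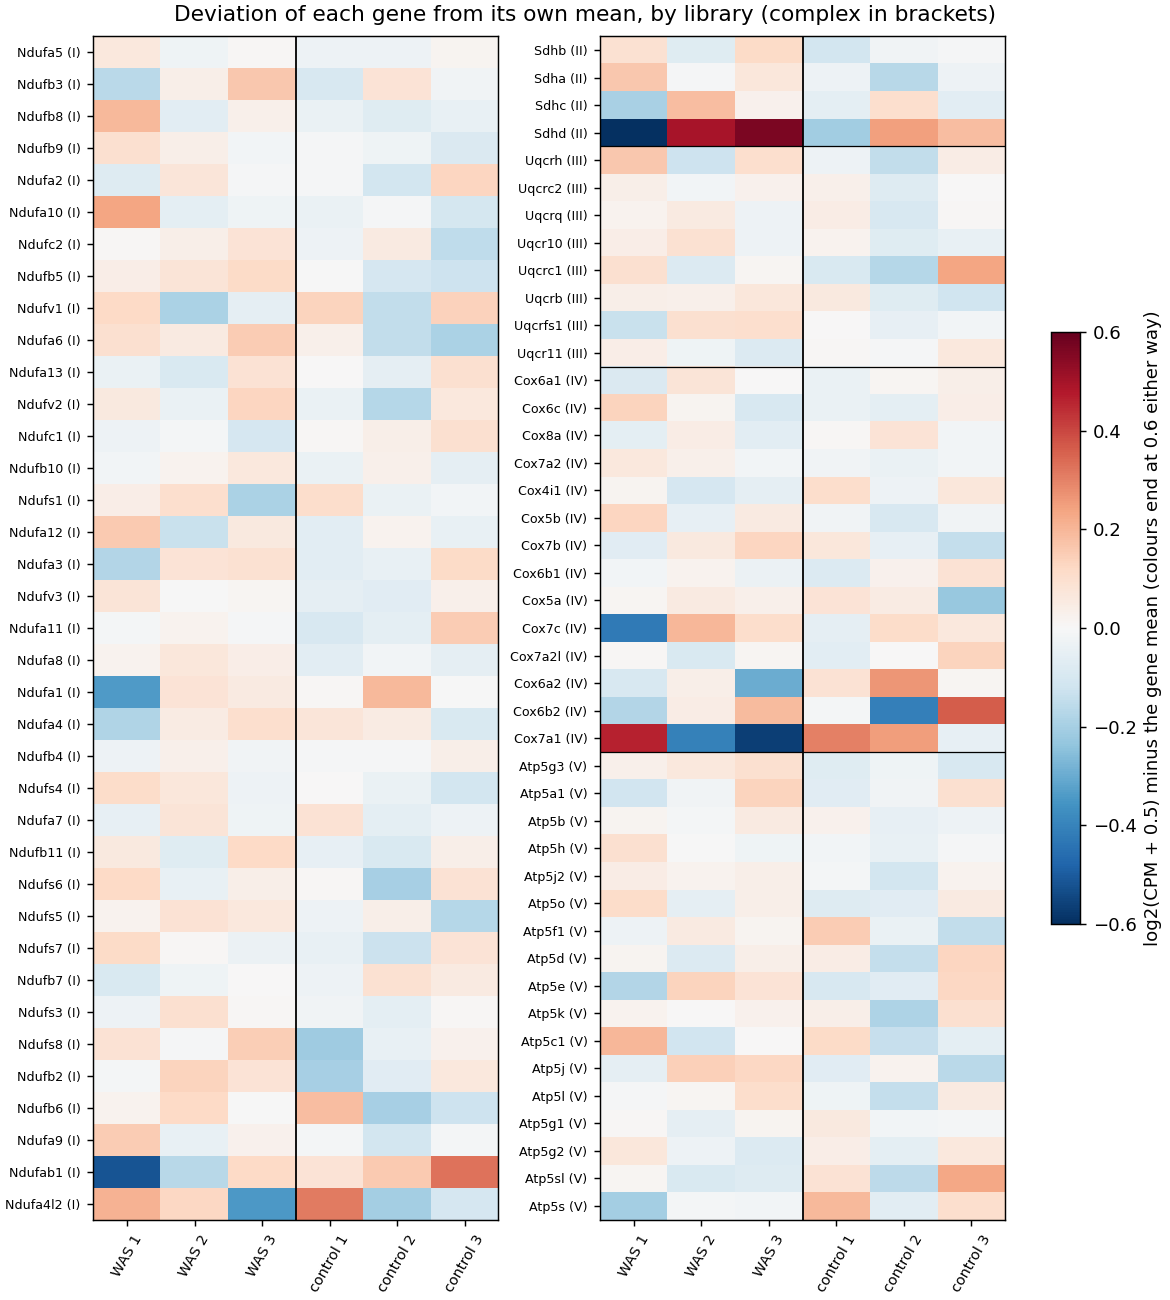
Deviation of each gene, 1 member left out, from its own mean over the 6 libraries (colour, log2(CPM + 0.5) minus the mean, red above and blue below, colours ending at 0.6), with genes in rows by complex and libraries in columns. The column of control 2 is mostly pale blue, and the deepest blue cell is Sdhd in WAS 1, at -1.29.

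**Figure D5:**
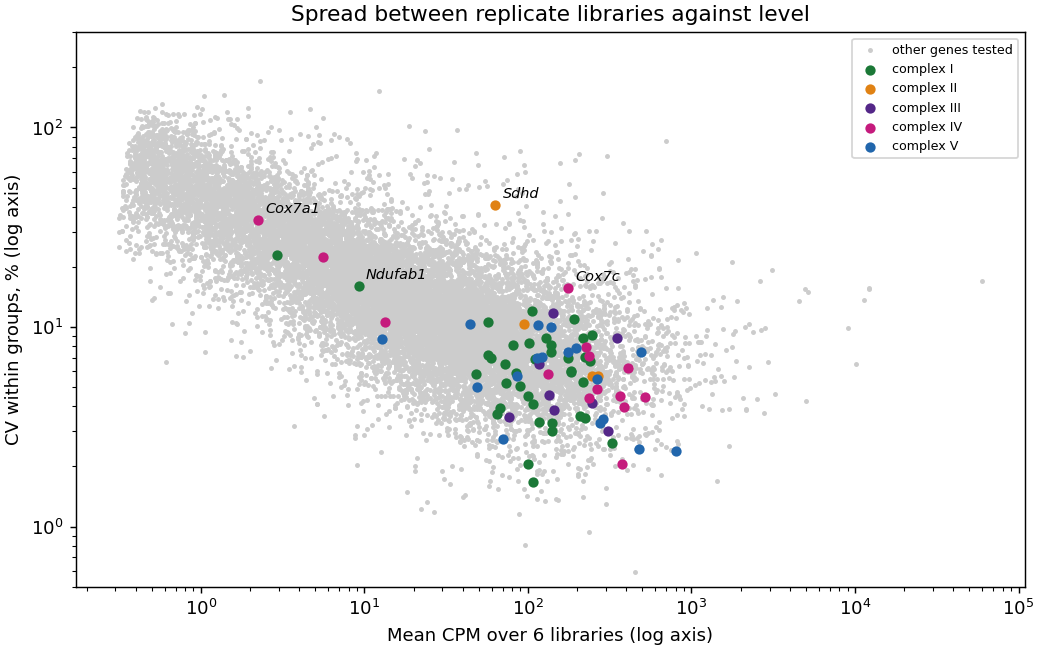
Spread between replicate libraries (y axis, CV within groups in percent, log axis) against level (x axis, mean CPM, log axis) for all genes tested (grey) and the members coloured by complex. The members lie mostly in the lower part of the grey cloud at their level, and Sdhd (41%) and Cox7c (15.7%) lie above the other members of their level.

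The genes of 4 lists around the chain are set beside all genes tested, of which 7.25% had an unadjusted p under 0.05 and 50.2% a log2 fold change above 0. The 47 assembly factors, which build the complexes, were all tested. Their log2 fold change was above 0 in 18, none had an unadjusted p under 0.05 by edgeR, and the median was -0.021. Of 22 genes of the TCA cycle, 12 were above 0 with a median of 0.024. Idh1, the cytosolic isocitrate dehydrogenase, had an unadjusted p under 0.05, at 44.31 ± 4.46 CPM against 35.52 ± 1.81 CPM (SD, n = 3; log2 fold change 0.32, adjusted p = 0.584 by edgeR). Among 25 tested genes of electron carriers, exchangers and uncoupling proteins, 14 were above 0 with a median of 0.014, and Etfb, the beta subunit of the electron transfer flavoprotein, had an unadjusted p under 0.05, at 52.58 ± 0.732 CPM against 43.71 ± 3.73 CPM (SD, n = 3; log2 fold change 0.27, adjusted p = 0.625 by edgeR). Cycs, cytochrome c itself, was at 131.7 ± 5.42 CPM against 127.3 ± 7.74 CPM. This list also holds Cyc1, cytochrome c1, a catalytic subunit of complex III whose symbol lies outside the rule for members. Cyc1 was at 76.74 ± 15.3 CPM against 72.8 ± 6.76 CPM (SD, n = 3), a log2 fold change of 0.077 (SE 0.13).

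Among 26 regulators of mitochondrial biogenesis, 16 were above 0 with a median of 0.013. Prkaa2, a catalytic subunit of AMP-activated kinase, was the one with an unadjusted p under 0.05 and lay lower in the WAS libraries, at 31.47 ± 1.246 CPM against 37.92 ± 1.39 CPM (SD, n = 3; log2 fold change -0.27, adjusted p = 0.625 by edgeR). Ppargc1a, the coactivator of mitochondrial genes, was at 92.97 ± 8.66 CPM against 91.73 ± 2.07 CPM. Nrf1, whose motif is shown in capitals above, had 180, 137 and 145 counts in WAS 1 to 3 and 129, 143 and 103 in control 1 to 3. Its CPM groups did not overlap, and its log2 fold change of 0.33 (SE 0.16) had an unadjusted p of 0.0668 and an adjusted p of 0.71 by edgeR. Cycs, Cyc1, Ppargc1a and Nrf1 were chosen from these lists after their values were seen.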

How the data were processed

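Forebrain RNA of 6 mice was sequenced with QuantSeq 3′ mRNA-Seq from 500 ng of total RNA, with single-end reads of 75 bp. Bowtie2 was the authors' aligner and Bedtools their counter, and alignments to several places were counted. They deposited raw counts per gene symbol. The submitters' processing notes name mm10 and the annotation is not given in the sources used here. Repeated symbols (44 entries) stayed separate. Totals of 9248520 to 10502029 counts per library, without molecular identifiers, set the counting error. No pair of libraries agreed within sampling noise (chi-square per degree of freedom of at least 4.87). Nothing beyond the replicate labels says how mice were assigned.

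Counts were tested with edgeR 4.0.16 (quasi-likelihood, TMM, group only, prior count 2) in R 4.3.3 on the genes with a mean log2(quantile-normalized count + 1) of at least 2, and p-values were adjusted over all 15237. The standard error was taken as |log2 fold change| over √F. The study named edgeR, quantile normalization and a fold of 1.5 but no test. Alternatives were total-count scaling, DESeq2 1.42.0, limma 3.58.1, other filters, a replicate block and leaving out each library. The scripts were tested on simulated data. The values of 1 member are not reported here by name or drawn in the plots by gene; it stayed in the fits, counts and sums. Members and gene lists were chosen with earlier results of these data known. Genes named are, by complex, the 2 highest and 2 lowest in level, the highest and lowest in log2 fold change, every member with an unadjusted p under 0.05, complex II, the subunit families, entries under the minimum and list genes with an unadjusted p under 0.05, with later additions marked. Groupings by role were made after values were seen. Member positions and promoters came from RefSeq (78 members matched by symbol and 3 by an older symbol), and transcript ends from GENCODE M21. Marker sums not given in the report were 5443 to 7458 CPM for oligodendrocytes and 226 to 250 for endothelium.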

Additional observations from a re-analysis of the deposited data

How the results depend on the processing

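No setting gave a member an adjusted p under 0.05 or an unadjusted p under 0.05 with a fold of 1.5. The count of members with an unadjusted p under 0.05 was 4 with total-count scaling (Ndufb5, Ndufa6, Sdha and Atp5g3), 3 with limma on quantile-normalized counts (Ndufb5, Ndufa6 and Atp5g3), 0 with DESeq2 and 0 to 2 when 1 library was left out. These are 4.94%, 3.7%, 0% and at most 2.47% of the members, where the same settings gave 7.67%, 6.97%, 5.82% and 4.09 to 13.7% of all genes. Non-overlapping members numbered 15 under total-count scaling, 15 under quantile normalization (each 18.5%, against 12.2% and 11.5% of all genes) and 13 to 19 with 1 library left out (16 to 23.5%, against 18.9 to 29.4% of all genes), where fewer libraries make separation easier. Total-count scaling moved the median log2 fold change over all genes to 0.037. It moved those of the members to 0.095 (complex I), 0.11 (II), 0.075 (III), 0.025 (IV), 0.065 (V) and 0.079 (all members), and summed levels to 5.89% (I), 2.84% (IV), 6.38% (V) and 5.49% (all) above control. Quantile normalization gave 4.69%, 3.22%, 6.72% and 5.15%, with medians of 0.063 in complex V and over all members. Total-count scaling without the ribosomal entry Rn45s in the totals gave 0.091 (I), 0.020 (IV) and 0.075 (all), and leaving out members with shared transcript ends gave 33 of 53 above 0 and -0.050 in complex IV; these alternatives were chosen after seeing the data. Leaving out 1 library gave medians of 0.033 to 0.056 (I), -0.042 to 0.0088 (IV), 0.00079 to 0.051 (V) and 0.022 to 0.050 (all).

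Signs turned for genes near 0. Under total-count scaling Atp5g1 was 0.016, Atp5g2 0.0076, Cox6a1 0.032, Cox6b1 0.018, Ndufa4 0.020 and Ndufa4l2 0.028. Under quantile normalization Cox6a1 was 0.054, Cox6b1 0.014, Cox8a 0.0010 and Sdhd -0.14. Atp5a1 was -0.0015 with DESeq2 and -0.0032 with no filter on low counts. With 1 library left out, the log2 fold change lay between -0.071 and 0.053 for Atp5a1, -0.035 and 0.0041 for Atp5g1, -0.076 and 0.0033 for Atp5g2, -0.047 and 0.033 for Cox6a1, -0.064 and 0.020 for Cox6b1, -0.17 and 0.24 for Cox6b2, -0.021 and 0.096 for Cox6c, -0.094 and 0.0063 for Cox7a2l, -0.074 and 0.061 for Ndufa4, -0.13 and 0.19 for Ndufa4l2, -0.052 and 0.11 for Ndufb3, -0.074 and 0.11 for Sdhc, -0.24 and 0.44 for Sdhd, and -0.00077 and 0.052 for Uqcrc2. The cause of these changes was not tested.

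Libraries of the same number deviated together with correlations of 0.079, 0.099 and 0.093, none above 0.1, so they were not taken as pairs, although each of the 6 correlated best with its own number. A replicate block gave 1 member with an unadjusted p under 0.05 (Ndufa6) and none with an adjusted p under 0.05, while over all genes 50 passed an adjusted p of 0.05 against 0 without it, and 1428 against 1104 an unadjusted p. Under the block Atp5a1 was -0.0018 and Sdhd -0.11. Of all genes, 491 passed an adjusted p of 0.05 without WAS 2 and 22 by DESeq2.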

Other observations

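The 81 members lay on 19 chromosomes, with the most, 9, on chromosome 7 and 3 on the X chromosome. The membrane subunits Atp5j2 and Atp5l of complex V, outside the ring, were at 281.6 against 269 CPM and 87.31 against 82.94 CPM in the WAS and control libraries, with overlapping groups. Ucp2, an uncoupling protein of the inner membrane, was at 4.195 ± 0.557 CPM against 6.108 ± 1.66 CPM (SD, n = 3; log2 fold change -0.52, SE 0.26, unadjusted p = 0.0684 by edgeR over all genes), and its groups did not overlap. Among the assembly factors, Sdhaf3, which serves complex II, had the highest log2 fold change, 0.73 (SE 0.40), from 6 to 17 counts per library, and Uqcc3, which serves complex III, the lowest, -0.28 (SE 0.14, unadjusted p = 0.0638 by edgeR). These genes were chosen after their values were seen.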
